A study of Rattus norvegicus with 18 samples.

Results

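Bhlha15, which encodes the transcription factor MIST1, was followed across all 18 arrays of a rat insulinoma cell experiment. It is represented by 1 probe set, 1387212_at, of 31042 probe sets that were not array controls, and is 1 of 14218 genes that the platform annotation names. The probe set was selected on its response to doxycycline in these same arrays, so its levels and ratios are given as a description, with no test. The cells were clone #4S2, a sorted clone of the rat β-cell line INS-1 that carries a Tet-ON switch and a mouse Ins2(C96Y)-EGFP transgene. This transgene encodes a fluorescent proinsulin with the Akita mutation, which cannot fold properly in the endoplasmic reticulum (ER). Doxycycline at 2 µg/ml was given for 24 h, for 48 h or for 5 days (3 arrays at each time, from independent experiments), and untreated cells of the same clone were the controls (3 arrays at each time). Treated and untreated cells therefore share the transgene and its possible basal expression, no group received doxycycline without the transgene, and all groups derive from a single clone. Outside the arrays, the paper states that the same dose left Grp78 and Chop unchanged in parental INS-1 cells, with those results not shown.

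MIST1 is a basic helix-loop-helix (bHLH) factor of cells that secrete large amounts of protein, such as pancreatic acinar cells, gastric zymogenic cells and plasma cells. It binds DNA as a dimer at short E-box motifs and is known for arranging the secretory apparatus of these cells, and in mouse zymogenic cells it lies downstream of XBP1. XBP1 is spliced by the ER stress sensor IRE1 and, together with ATF6, drives chaperone and ER degradation genes, whereas the sensor PERK acts through translation control and the factors ATF4 and CHOP. Bhlha15 is not among the genes by which β-cells are usually recognised.

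The promoter of Bhlha15 is shown because E-boxes and the motifs of the ER stress factors can be looked for in it. The gene lies on the minus strand of chromosome 12 (15534123 to 15538299, 4177 bp, RefSeq annotation of the rat assembly GRCr8), and the bases just upstream of its start hold 3 matches to the E-box CAGGTG, written in capitals.
Bhlha15, 250 bases upstream, chr12:15538300-15538549, minus strand: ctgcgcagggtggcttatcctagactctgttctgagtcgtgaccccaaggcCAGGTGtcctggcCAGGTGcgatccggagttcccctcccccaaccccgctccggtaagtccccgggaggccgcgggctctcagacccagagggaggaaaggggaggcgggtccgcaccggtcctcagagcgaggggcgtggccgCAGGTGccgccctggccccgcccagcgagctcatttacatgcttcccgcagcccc
The matches begin at positions -199, -186 and -55, counted from the start of the gene. Both strands were searched in windows of 300 bases, 250 before and 50 after each start. Of 33469 such RefSeq windows, 18.8% held CAGGTG and 120 (0.359%) held it at least 3 times, while 72.1% held any CANNTG, a looser E-box of which CAGGTG is a case. CAGGTG was among the motifs looked at after the sequence had been seen. The Bhlha15 window held no CANNTG match besides these, and whether MIST1 binds CAGGTG was not tested. The same window holds ACGTG, the core to which XBP1 and ATF6 can bind, in capitals in the site shown next.
Bhlha15, downstream of the start, chr12:15538264-15538293, minus strand: ggtggctaaagcgACGTGtccttgtccccc
ACGTG was present in 19.3% of all windows, in 14 of the 26 ER chaperone windows (53.8%), in 21 of the 29 windows of ER translocation and transport genes (72.4%), in 9 of the 14 of ER-associated degradation genes (64.3%) and in 10 of the 25 of ATF4 and CHOP targets. The full ER stress element, CCAAT and CCACG separated by 9 bases, was not matched in the Bhlha15 window, and it occurred in 22 of all windows (0.0657%) and in 7 of the 26 ER chaperone windows (26.9%). Those of 3 chaperone genes are shown for comparison, with the fixed letters in capitals. Hsp90b1 and Dnajc3 are among the genes most like Bhlha15 in these arrays, and Hspa5, the gene of the chaperone BiP, was picked as the textbook carrier of the element.
Hsp90b1, chr7:23012451-23012469, minus strand: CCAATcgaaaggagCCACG
Hsp90b1, chr7:23012347-23012365, plus strand: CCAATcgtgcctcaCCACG
Dnajc3, chr15:102432534-102432552, plus strand: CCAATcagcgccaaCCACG
Hspa5, chr3:38452973-38452991, plus strand: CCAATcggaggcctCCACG
TGATGNAA, the element that ATF4 binds, was also not matched in the Bhlha15 window, and was found in 3.98% of all windows and in 5 of the 25 windows of ATF4 and CHOP targets. A match is a run of letters and not a measured binding site, and its absence says only that these letters are not in this window.

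The arrays report linear signals, scaled to a common trimmed mean, with medians between 91.2 and 138.5, and the values below are quantile normalized signals. Several of the 5-day libraries stand apart. In the pair labelled replicate 1 the ratios of 545 probe sets that changed at 48 h correlated at -0.81 with their 48 h means, against 0.34 and 0.90 in the pairs labelled replicates 2 and 3, so this pair ran against its labels. The library labelled doxycycline, 5 days, replicate 2 stood out by its GAPDH control probe sets, whose 3′ signal was 2.91 times the 5′ signal, a quotient that grows as RNA degrades and that lay between 1.05 and 1.19 on each of the 17 remaining arrays. The 5-day values are therefore given library by library.

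Bhlha15 was about 2.8-fold higher with doxycycline at 24 h and at 48 h, and higher in every one of the 6 pairs. At 24 h its signal was 410.3, 695 and 1094 in doxycycline-treated cells, against 171, 252 and 329 in control cells (replicates 1 to 3). The groups did not overlap, yet within each group the level itself spread widely, by 2.67-fold among treated and by 1.93-fold among control cultures, with the replicates in the same order in both. The log2 ratios of the 3 pairs were 1.27, 1.46 and 1.73, with a mean of 1.49 ± 0.23 (SD, n = 3), so the pairs differed less in their ratio than the cultures did in their level (SD 0.71 among treated and 0.48 among control arrays on the log2 scale). At 48 h the signal was 798, 915 and 1133 in doxycycline-treated cells, against 265, 394 and 365 in control cells. Again the groups were apart, and each was tighter than at 24 h, with spreads of 1.42-fold and 1.49-fold. The log2 ratios were 1.59, 1.21 and 1.63, with a mean of 1.48 ± 0.23 (SD, n = 3). Linear ratios averaged 2.83 ± 0.46 at 24 h and 2.81 ± 0.43 at 48 h (SD, n = 3 each), so the response was no larger at the later time. By mean log2 ratio Bhlha15 stood at rank 12 at 24 h and at rank 20 at 48 h among the 15521 probe sets of sufficient signal to be tested. It was among the 15 probe sets (0.0966%) at 24 h and the 43 (0.277%) at 48 h whose ratio was at least 2 in 3 of 3 pairs, which is read as description since the gene was chosen for it. In RNA from whole cultures, more cells that express a gene and more RNA per cell cannot be told apart, nor can fewer cells and less RNA where a value is lower.

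**Figure D1:**
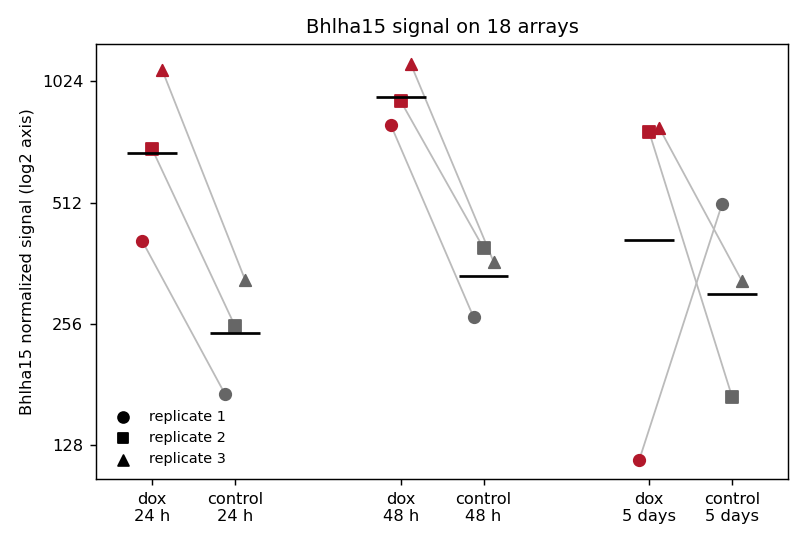
Quantile normalized Bhlha15 signal on each of the 18 arrays (log2 axis), with doxycycline left of control at each time, symbols for the replicate, grey lines joining same-numbered arrays and black bars at the mean of the log2 values (n = 3). All 6 pairs at 24 h and 48 h fall towards control, whereas at 5 days the pair labelled replicate 1 runs the other way.

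At 5 days the libraries labelled doxycycline gave 117, 765 and 785, and those labelled control gave 509, 168 and 326. The pairs labelled replicates 2 and 3 had log2 ratios of 2.19 and 1.27, and the pair labelled replicate 1 had -2.12. As labelled, the mean was 0.45 ± 2.27 (SD, n = 3), a value that describes none of the 3 pairs, and the groups overlapped. With the labels of the replicate 1 pair exchanged, the mean log2 ratio was 1.86 ± 0.51 (SD, n = 3) and the mean linear ratio 3.76 ± 1.18. The exchange is an alternative reading of the labels, not a correction, and the cause of the opposed pair was not tested. The library labelled doxycycline, replicate 2, with the high GAPDH ratio, had a Bhlha15 signal close to that of the library labelled doxycycline, replicate 3. The ratio of 2.19, and the means that include it, rest on the library labelled control, replicate 2, with the high Trib3 signal.

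Ordered by mean log2 level, control cells at 24 h were lowest (7.92 ± 0.48), followed by the libraries labelled control at 5 days (8.24 ± 0.80), control cells at 48 h (8.39 ± 0.30), the libraries labelled doxycycline at 5 days (8.69 ± 1.57), doxycycline-treated cells at 24 h (9.41 ± 0.71) and doxycycline-treated cells at 48 h (9.87 ± 0.26, SD, n = 3 each). The gaps between neighbours in this order were 0.33, 0.15, 0.30, 0.71 and 0.47, each no larger than the larger SD of its neighbours. Neighbours in this order therefore do not differ beyond their spread, whereas treated and control cells of the same time were 1.49 and 1.48 log2 units apart at 24 h and 48 h. The control level at 24 h and that at 48 h overlapped (171 to 329 and 265 to 394). This order takes the 5-day labels as given, and exchanging those of the replicate 1 pair would change the places of the 5-day groups.

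The genes whose signal followed Bhlha15 most closely included several that act in protein folding, glycosylation and translocation at the ER. Among 9078 genes with a tested probe set, the 10 of highest Pearson correlation over the 18 arrays were Hsp90b1 (r = 0.99), Srpra (0.98), Magt1 (0.98), Ddost (0.97), Ticam1 (0.96), Dnajc3 (0.96), Paox (0.96), Pdia6 (0.96), Dnajb11 (0.96) and Manf (0.95). Hsp90b1 is the ER form of HSP90, Pdia6 a disulfide isomerase, Dnajc3 and Dnajb11 are co-chaperones of BiP, and Manf is a secreted ER stress protein. Srpra is the receptor that docks ribosomes for secretory proteins at the ER, and Magt1 and Ddost belong to the complex that adds sugar chains to new proteins. Ticam1, an adaptor of Toll-like receptor signalling, and Paox, a polyamine oxidase, have no such role. The arrays share treatment, time and pair, so these coefficients describe joint movement over all 3, and no p-value is attached to them. Over the 12 arrays of 24 h and 48 h, 5 of the 10 were again among the 10 likest.

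Hsp90b1 had nearly the same order of arrays as Bhlha15 but smaller ratios. Its signal at 24 h was 13846, 15505 and 17469 in doxycycline-treated cells, against 9835, 11700 and 13052 in control cells. At 48 h it was 16789, 18422 and 18233 in doxycycline-treated cells, against 11659, 13015 and 12978 in control cells. The ordering of replicates at 24 h, lowest in replicate 1 and highest in replicate 3 in both groups, was the same in both genes, and the groups overlapped in neither Bhlha15 nor Hsp90b1. The log2 ratio of Hsp90b1 was 0.44 ± 0.07 at 24 h and 0.51 ± 0.07 at 48 h (SE; limma adjusted p = 0.097 and 0.035), with Spearman's rho of 0.98 to Bhlha15. Magt1, with 3527, 3495 and 3865 in doxycycline-treated cells at 48 h, against 1862, 2192 and 2032 in control cells, had the highest r over the 12 arrays, at 0.99. After the mean of each group was taken away, so that only differences between replicates remained, Hsp90b1 still had the highest r of the 9078 genes, at 0.98. This remainder is dominated by the scattered 5-day libraries, and over the 12 arrays of 24 h and 48 h it was 0.94.

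At the other end, the 5 genes of lowest correlation were Gch1 (r = -0.91), which makes the pterin cofactor of nitric oxide and dopamine synthesis, Cited2 (-0.90), a transcriptional co-regulator, Sugp2 (-0.89), Mpp3 (-0.89), a membrane scaffold protein, and Ublcp1 (-0.85), a phosphatase of the proteasome. Their log2 ratios at 48 h lay between -0.57 and -0.36, and none passed the test (adjusted p of 0.055 to 0.095). Gch1 was lower with doxycycline in 6 of 6 pairs at 24 h and 48 h, with mean log2 ratios of -0.39 ± 0.07 and -0.43 ± 0.07 (SE; limma adjusted p = 0.133 and 0.055). Their opposite course to Bhlha15 was therefore carried by small differences.

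Of the ER chaperones and folding enzymes, 24 of 30 tested genes rose at 48 h and 8 of 30 at 24 h, with none lower, where 2.33% and 0.193% of all tested probe sets were called higher and 1.19% and 0.0129% lower (limma adjusted p under 0.05, 361 and 30 higher, 185 and 2 lower). At 5 days 0% was called in either direction (172 and 213 probe sets passed upward and downward before adjustment). The median log2 ratio of the list was 0.60 at 24 h and 0.66 at 48 h, against -0.01 and -0.01 over all tested probe sets. The members with the largest ratios at 48 h were Sdf2l1 (1.86 ± 0.08), part of a BiP complex, Fkbp11 (1.59 ± 0.07), a prolyl isomerase of secretory cells, Pdia2 (1.40 ± 0.10), a pancreatic disulfide isomerase, and Creld2 (1.37 ± 0.08, SE, adjusted p of 0.0067 to 0.014). Of these, only Sdf2l1 and Fkbp11 had a mean log2 ratio above that of Bhlha15 at 48 h. The calls need all 3 pairs: with any 1 pair left out, 0 of the 30 genes passed at 24 h and 0 to 3 at 48 h, and without the pairing 0 passed at 24 h. For no probe set did the change between 24 h and 48 h pass the test of the difference (smallest adjusted p = 0.590).

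Bhlha15 tracked this list across arrays, but less firmly among control cultures alone, and within either treatment without its 2 farthest arrays. The mean of the 30 genes correlated with Bhlha15 at r = 0.96 and rho = 0.95 over the 18 arrays, at r = 0.95 without the 2 arrays farthest from the median of the list, and at r = 0.96 over the 12 arrays of 24 h and 48 h. Treated and control arrays of 24 h and 48 h lie apart, so the values within each treatment are given as well. Among the 9 arrays labelled control, r was 0.86 and rho 0.73, and among the 9 labelled doxycycline, r was 0.98 and rho 0.90. Without the 2 arrays farthest from the median of their group these were r = 0.75 and r = 0.58 (7 arrays each), with rho of 0.46 and 0.79. Over the 6 doxycycline arrays of 24 h and 48 h, r was 0.91 and rho 0.83, and over the 6 control arrays r was 0.80 but rho 0.49. Of these control arrays, replicate 1 at 24 h had a list mean of -0.63 log2 units. The rest lay between -0.29 and -0.19, so the r of 0.80 rests largely on that culture. With the labels of the opposed 5-day pair exchanged, r was 0.91 among control and 0.82 among doxycycline arrays. Singly, 20 of the 30 genes (66.7%) had r above 0.8, against 211 of 15520 probe sets (1.36%), and the median was 0.92, against -0.01. Bhlha15 and most of the list were higher with doxycycline and were chosen with earlier results known, so these shares are description only. The lowest were Ero1a (0.12) and Dnajc10 (0.25), neither of which passed the test at 48 h (adjusted p = 0.677 and 0.669).

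The targets of ATF4 and CHOP had a larger median ratio than the chaperones at 48 h but not at 24 h, and their likeness to Bhlha15 depended on which arrays were taken. Of 28 genes measured, 24 had sufficient signal. Of these 20 rose at 48 h and 0 at 24 h, where 2.33% and 0.193% of all tested probe sets were called higher. The median log2 ratio of the list was 0.98 at 48 h and 0.52 at 24 h. With 1 pair left out, 0 (without replicate 1) to 10 (without replicate 2) passed at 48 h. In the lead were Trib3 (3.85 ± 0.15), a pseudokinase that restrains ATF4, the cystine transporter gene Slc7a11 (3.79 ± 0.19), Pycr1 (3.14 ± 0.16) of proline synthesis and Gpt2 (2.41 ± 0.32, SE, adjusted p of 0.0067 to 0.035), an alanine aminotransferase. Over 18 arrays, r of the list mean with Bhlha15 was 0.35 and rho 0.51, and 0 of the 24 genes had r above 0.8. It was 0.70 over the 12 arrays of 24 h and 48 h, and 0.68 without the 2 farthest arrays. Within the 9 arrays labelled doxycycline r was 0.90. It was 0.52 over the 6 doxycycline arrays of 24 h and 48 h, and 0.54 without the 2 farthest doxycycline arrays. With the labels of the opposed 5-day pair exchanged it was 0.53. Within the 9 arrays labelled control r was -0.47, and every one of the 24 genes had a negative r there, against 50.4% of all tested probe sets. The 24 genes move together, so this count is not 24 separate observations. For comparison, 27 of 30 chaperone genes had a positive r among control arrays, against 49.6% of all tested probe sets.

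The values behind the opposed sign among controls differ from culture to culture. Trib3 in control cells at 24 h was 461 in replicate 1, against 147 and 99.9 in replicates 2 and 3, and Bhlha15 was lowest in that same replicate 1. The library labelled control, 5 days, replicate 2 had the highest Trib3 signal of all 18 arrays, 5053, together with a Bhlha15 signal of 168, the lowest of the arrays labelled control. In treated cells at 48 h, Trib3 was 2053, 1453 and 1608, against 107, 116 and 130 in control cells. In the 2 control arrays named, replicate 1 at 24 h and the one labelled replicate 2 at 5 days, the mean of the chaperone list was low too (-0.63 and -0.59 log2 units from the mean over arrays, against -0.36 to -0.19 in 6 of the other 7 arrays labelled control). The exception is the library labelled control, 5 days, replicate 1, of the opposed pair, where raised ATF4 and CHOP targets (list mean 0.34) came with the highest Bhlha15 of the arrays labelled control (509) and a high chaperone mean (0.34). Among the 6 control arrays of 24 h and 48 h the correlation of the ATF4 and CHOP list with Bhlha15 was -0.86, with that replicate 1 at 0.10 log2 units on the list mean and the other 5 arrays between -0.86 and -0.76, so the value rests on 1 culture. Among all 9 it was -0.62 with the labels of the opposed 5-day pair exchanged. What set these cultures apart was not tested.

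**Figure D2:**
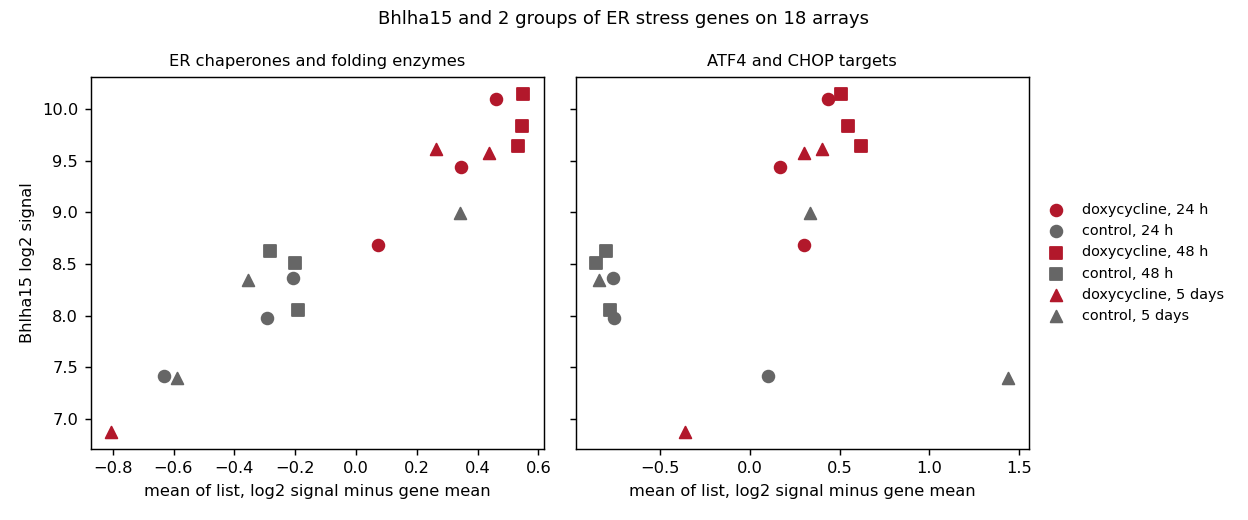
Bhlha15 log2 signal against the mean of a gene list (log2 signal minus each gene's mean over arrays), 1 point per array, with colour for treatment and shape for time. On the left the 18 arrays lie along a line (r = 0.96 for ER chaperones and folding enzymes), and on the right they scatter (r = 0.35 over all, -0.47 among arrays labelled control), with 2 of the 3 control arrays of raised ATF4 and CHOP targets low in Bhlha15 and the third, of the opposed 5-day pair, high.

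Genes for moving proteins into and out of the ER resembled the chaperones in their likeness to Bhlha15 but had smaller ratios. Of 33 tested genes for ER translocation and ER-Golgi transport, 14 rose at 48 h and only Tmed3, a cargo receptor gene, at 24 h. Of all tested probe sets 2.33% and 0.193% were called higher at these times. Median log2 ratios of the list were 0.39 and 0.35, and with any 1 pair left out 0 of its genes passed. A fit of the 24 h and 48 h arrays together called 13 genes at 24 h and 25 at 48 h, and without the pairing 0 and 9 were called. Largest at 48 h were Kdelr3 (1.29 ± 0.10), which returns escaped chaperones to the ER, Tmed3 (1.01 ± 0.08), the translocation channel gene Sec61a1 (0.67 ± 0.07) and the COPII coat gene Sec23b (0.67 ± 0.07, SE, adjusted p of 0.014 to 0.026). The list mean correlated with Bhlha15 at r = 0.93 over 18 arrays and at 0.67 among the arrays labelled control. Singly, 15 genes (45.5%) had r above 0.8 over the 18 arrays, against 1.36% of all tested probe sets. As with the chaperones, this share is description only.

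For ER-associated degradation, 8 of 15 tested genes rose at 48 h and 2 at 24 h, Sel1l and Selenos, against 2.33% and 0.193% of all tested probe sets. The median log2 ratio of the list was 0.52 at each time, and with 1 pair left out 0 to 2 of its genes passed at 48 h. The largest at 48 h were Herpud1 (1.80 ± 0.10), Sel1l (1.35 ± 0.09), Selenos (0.95 ± 0.09) and Os9 (0.75 ± 0.11, SE, adjusted p of 0.0077 to 0.040), all of them parts of the machinery that exports misfolded proteins. The list mean correlated with Bhlha15 at r = 0.92 over 18 arrays. Among the arrays labelled control 13 of the 15 genes had a positive r, such as Os9 (0.85), against 49.6% of all tested probe sets. The exceptions were Herpud1 (-0.31) and Selenos (-0.16). Without the 2 farthest control arrays the r of the list mean there was -0.55, against 0.59 with them, so no direction within controls is given for this list.

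**Figure D3:**
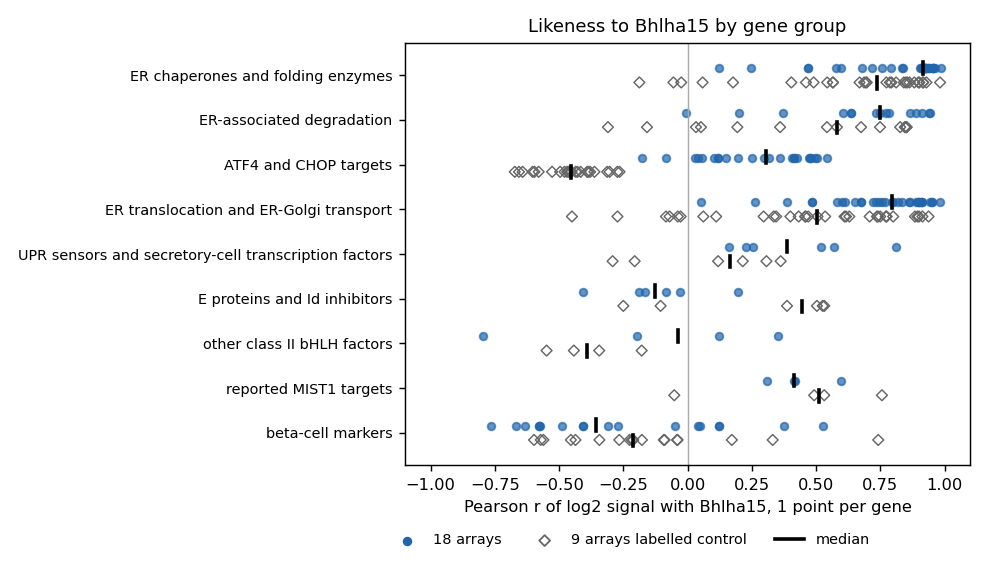
Pearson r of each list gene with Bhlha15, with filled circles over the 18 arrays, open diamonds over the 9 arrays labelled control and black bars at the medians. ER chaperones lie to the right in both (medians 0.92 and 0.73), whereas all 24 ATF4 and CHOP targets lie left of 0 among control arrays (median -0.45).

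Xbp1 and the other tested genes for ER stress sensors and secretory-cell factors had smaller ratios at 24 h and 48 h than Bhlha15. Since Bhlha15 was chosen for its response, this contrast is description only. Xbp1 had signals of 6653, 6303 and 6571 in doxycycline-treated cells at 48 h, against 5885, 6344 and 5429 in control cells. At 24 h it was 7480, 6999 and 6729 in doxycycline-treated cells, against 6366, 5857 and 5790.0 in control cells. The groups overlapped at 48 h but not at 24 h, and the log2 ratio was 0.15 ± 0.09 at 48 h and 0.24 ± 0.07 at 24 h (SE; limma adjusted p = 0.360 and 0.235), with r = 0.25 to Bhlha15. The probe set gives 1 signal for Xbp1, so splicing of its RNA is not read here. Outside the arrays, the paper reports spliced XBP1 RNA in this clone under doxycycline, and activation of the PERK and ATF6 pathways. The arrays give RNA levels of the sensor genes, and the activity of the sensors was not tested here. Of the 6 tested genes for ER stress sensors and secretory-cell factors, 2 rose at 48 h, against 2.33% of all tested probe sets. They were Creb3l1 (1.14 ± 0.12), an ER-bound factor of secretory cells, and Eif2ak3 (0.94 ± 0.10), the gene of PERK (SE, limma adjusted p = 0.024 for each). These calls depend on the fit: over 9 settings Creb3l1 passed in 4 (adjusted p of 0.0096 to 0.359) and Eif2ak3 in 3 (0.0032 to 0.375). Creb3l1 had signals of 457, 627 and 652 in doxycycline-treated cells, against 240.3, 303 and 241 in control cells, without overlap. Atf6 stood just short of the threshold at 48 h (0.66 ± 0.11, adjusted p = 0.051, passing in 2 of the 9 settings), and the related Atf6b and Creb3 gave 0.25 ± 0.07 and 0.02 ± 0.07 (SE, adjusted p = 0.118 and 0.895). Over the 18 arrays Eif2ak3 had the highest r of these 6 with Bhlha15, at 0.81, and over the 12 arrays of 24 h and 48 h Creb3l1 had, at 0.91. Creb3l2, Prdm1 and Spdef lay below the signal limit.

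Neither the partners nor the inhibitors of class II bHLH factors passed the test at any time. E proteins, the usual dimer partners, were measured as Tcf3 (log2 ratio 0.03 ± 0.10 at 48 h) and Tcf12 (0.03 ± 0.07), and the third, Tcf4, lay below the signal limit. Tcf3 was dim too, with signals of 126 to 213 on the 48 h arrays. The Id proteins, which lack a DNA-binding region and sequester E proteins, gave 0.15 ± 0.10 for Id1, 0.19 ± 0.12 for Id2, 0.32 ± 0.16 for Id3 and -0.29 ± 0.12 for Id4 (SE; adjusted p of 0.234 to 0.878 over these 6 genes). Of these 6 ratios the farthest from 0 was that of Id3. Their r with Bhlha15 lay between -0.41 and 0.20.

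Among other bHLH factors, Neurod1, an islet factor that like MIST1 pairs with E proteins, ran opposite to Bhlha15 over the arrays (r = -0.80). Its signal at 48 h was 6529, 6674 and 6227 in doxycycline-treated cells, against 8687, 7841 and 7754 in control cells. The groups did not overlap, but the log2 ratio of -0.32 ± 0.08 did not pass the test (SE, adjusted p = 0.090), and at 24 h it was -0.06 ± 0.08 with overlapping groups. Bhlhe40, Bhlhe41 and Tal1 gave 0.06 ± 0.08, 0.05 ± 0.10 and -0.18 ± 0.17 at 48 h (SE, adjusted p of 0.545 to 0.813). The other 6 of 10 measured factors, Ptf1a and Neurog3 of pancreas development among them, were below the signal limit.

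Genes reported as MIST1 targets in the mouse did not move with it to a degree that the test could call. Rab3d and Rab26 encode small GTPases of secretory granules. Rab3d had 4496, 4661 and 5024 in doxycycline-treated cells at 48 h, against 4540, 4391 and 4738 in control cells, a log2 ratio of 0.05 ± 0.07, and Rab26 had 344, 402 and 393 in doxycycline-treated cells, against 286, 380 and 383 in control cells, a log2 ratio of 0.13 ± 0.08 (SE, adjusted p = 0.700 and 0.392). In both genes the groups overlapped. The calcium pump gene Atp2c2 and the cell cycle inhibitor gene Cdkn1a gave 0.05 ± 0.09 and 0.07 ± 0.12 (SE, adjusted p = 0.757 and 0.745). All 4 had a positive r with Bhlha15 over the 18 arrays, of 0.31 to 0.60, as did 48.9% of all tested probe sets. Gjb1 and Copz2 lay below the signal limit and were not tested. Copz2 was near that limit (mean log2 signal 6.56 against 6.93). Its log2 ratios were 0.62, 0.22 and 0.26 at 24 h and 0.39, 0.63 and 1.61 at 48 h.

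**Figure D4:**
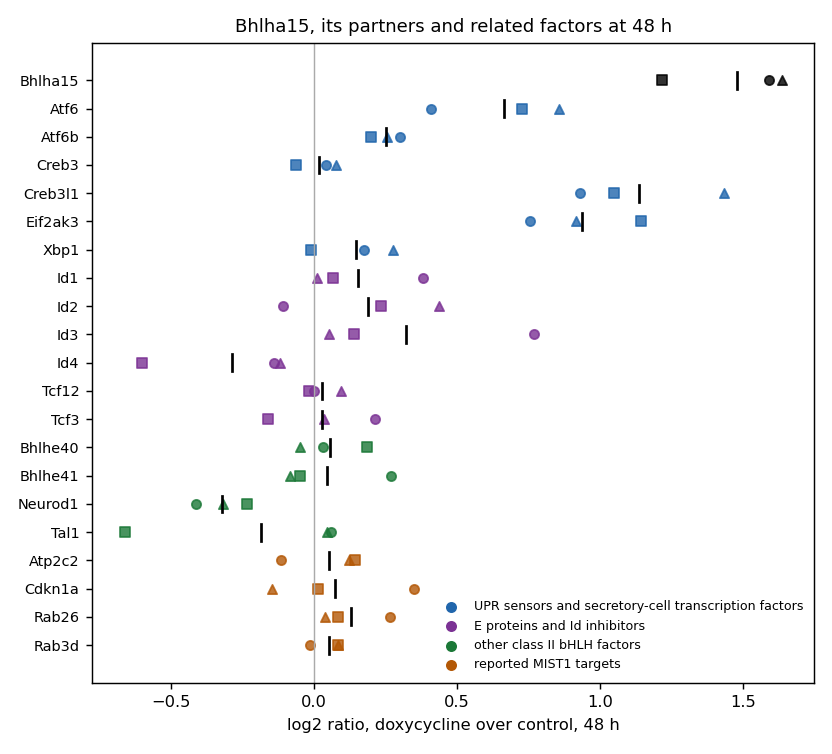
Log2 ratio of doxycycline over control at 48 h in each of the 3 pairs (symbols as for the replicates above, circle, square and triangle for 1, 2 and 3), with black bars at the mean and colours for the gene group. The mean of Bhlha15 (1.48), a gene chosen for its response, lies to the right of the means of the 20 other genes. Of these, Creb3l1 (1.14) and Eif2ak3 (0.94) passed the test.

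The measured acinar genes with which MIST1 is usually found lay below the signal limit, which uses the mean over all arrays. Of 24 acinar markers 22 were measured and 0 passed the signal limit. Their summed signal was 540.1 to 692 in doxycycline-treated cells at 48 h, against 511 to 633 in control cells, and 507 to 660 in doxycycline-treated cells at 24 h, against 467 to 645 in control cells. These sums overlap in each case. The β-cell label was borne out by its markers, since 18 of 18 measured markers passed the signal limit, with summed signals of 122850 to 141181 in doxycycline-treated cells at 48 h, against 143325 to 161211 in control cells. Of these, 4 fell at 48 h, against 1.19% of all tested probe sets. They were Mafa (-1.07 ± 0.07), Pcsk1 (-1.02 ± 0.12), Kcnj11 (-0.81 ± 0.07) and Pcsk2 (-0.69 ± 0.08, SE, limma adjusted p of 0.012 to 0.027). Among markers of other islet cells only glucagon, Gcg, passed the signal limit, and it fell at 48 h (-2.71 ± 0.11, adjusted p = 0.0067), and the summed signal of the 8 measured was 512 to 525 in doxycycline-treated cells, against 1691 to 2301 in control cells. Of 10 fibroblast markers 2 passed the limit, and Fn1 fell (-0.98 ± 0.08, adjusted p = 0.014), with sums of 2659 to 2953 in doxycycline-treated cells and 3487 to 4034 in control cells. The part of these shifts in the Bhlha15 values was not tested.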

How the data were processed

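The authors ran RNA of clone #4S2 cells on Affymetrix Rat Genome 230 2.0 arrays. The deposited intensities, linear signals of each probe set, had been scaled to a common trimmed mean, by a program not given in the sources used here. The 57 control probe sets were left out. Intensities were quantile normalized, values under 5.99 (10th percentile) set to it, and log2 taken. The 15521 probe sets from the 50th percentile of mean signal upwards were tested with limma (version 3.58.1, R 4.3.3) on the 6 arrays of each time, with same-numbered arrays as pairs and Benjamini-Hochberg adjustment over all (threshold 0.05). The pairing comes from ratios that the paper gives per independent experiment. In a check, what remained of paired arrays after subtracting group means had r of 0.67, 0.48 and 0.66 for the 24 h pairs. The 48 h pairs gave 0.58, 0.26 and 0.36, and the 5-day pairs 0.15, 0.14 and 0.11. Identical arrays were looked for and 0 found. With 3 arrays a group, the number of arrays limits the precision.

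Where a gene had several probe sets the brightest stood for it, under names from the platform annotation (20832 probe sets with 1 gene, of which 20764 matched RefSeq of GRCr8). Sel1l, Pdia3, Pycr1 and Pcsk1 took theirs from a supplementary table of the paper. Named were the 10 genes most and 5 least like Bhlha15, per list the 4 members of largest ratio at 48 h, and all tested members of the short factor and target lists, while other genes were singled out after their values were seen. The gene and all lists were chosen with earlier results of these data known. Likeness is Pearson r of log2 signal, with Spearman's rho. Scripts were tested on simulated data, in which the 48 h test recovered 23.9% of 1.5-fold and 61.2% of 2-fold changes. A gene that was not called may therefore still have changed. Alternatives covered normalization, floor, filter, pairing, pooled fits, the methods' t-test, each replicate left out and exchanged labels at 5 days. Promoter windows came from RefSeq (GRCr8).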

Additional observations from a re-analysis of the deposited data

How the results depend on the processing

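The mean log2 ratio of Bhlha15 was 1.36 to 1.60 at 24 h and 1.40 to 1.61 at 48 h with any replicate left out. At 5 days it was -0.42 to 1.73, with the sign turned to -0.42 without replicate 2. The paired fit mattered for counts of genes. Without the replicate block, genes higher at 24 h numbered 0 of ER chaperones, 0 of ER-associated degradation and 0 of ER transport, and at 48 h 9 of ER transport. In 1 fit of the 24 h and 48 h arrays, 21 ER chaperones, 6 ER-associated degradation genes, 3 ATF4 and CHOP targets and 13 ER transport genes were higher at 24 h, and 25 ER transport genes at 48 h. Without quantile normalization 1 ER-associated degradation gene was higher at 24 h. Leaving out each replicate gave 0 calls at 24 h in all 4 lists, and at 48 h 0 to 3 ER chaperones, 0 to 2 ER-associated degradation genes, 0 to 10 ATF4 and CHOP targets and 0 ER transport genes, with fewer arrays by construction. The correlation of Bhlha15 with the chaperone list was 0.95 without the 2 farthest arrays, 0.95 as Spearman's rho and 0.96 to 0.98 with a replicate left out. That with ATF4 and CHOP targets was 0.70 over the 24 h and 48 h arrays, 0.68 without the 2 farthest arrays and 0.22 to 0.62 with a replicate left out. Without the library labelled doxycycline, 5 days, replicate 2, an alternative chosen after seeing the data, these were 0.96 and 0.33.

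Over all probe sets, 24 h had 30 higher and 2 lower, and 48 h had 361 and 185. These became 0 and 0 at each time with no filter on signal and with a fit of all 18 arrays. Without the replicate block 24 h had 0 and 0, and 48 h had 208 higher and 67 lower. In the fit of the 24 h and 48 h arrays they were 169 and 45, and 876 and 734. The methods' t-test gave 486 and 293, 1264 and 1082, and 179 and 106 at 5 days without adjustment, but 0 and 0, and 121 and 41 after Benjamini-Hochberg. The criterion of 2-fold in 2 of 3 pairs gave 45 higher and 11 lower at 24 h, 79 higher and 29 lower at 48 h, and 46 higher and 68 lower at 5 days. Leaving out a replicate gave 0 at 24 h, and 0 to 29 and 0 to 7 at 48 h. The cause of these differences was not tested.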
